A study of Mus musculus with 16 samples.

Results

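Complement genes of inguinal white adipose tissue, the fat pad under the skin of the groin, were followed in messenger RNA of C57BL6/J mice. The 9 genes were taken by symbol: C1qa, C1qb, C1qc, C1ra, C1s1, C4b, C3, Cfb and Serping1. They were 9 of the 16091 genes in the table of normalized counts, and all 9 were among the 14189 that passed the filter on low values. The rule of choice did not use their values, but it was made with earlier results of these data known. The 4 groups held 4 libraries each. High-fat antibody mice were fed a high-fat diet and received the anti-PDGFcc antibody AF1447. High-fat untreated mice had the same diet and no antibody. Control-diet antibody mice had the control diet and the antibody, and control-diet untreated mice the control diet alone. The antibody binds PDGF-CC, a growth factor that acts on fat cell progenitors through PDGFRA, and the title of the series names adipogenesis pathways as its question. Mice aged 6 weeks received injections into the peritoneum at intervals of 2 days over 2 weeks, each of 100 µl PBS with antibody at 50 mg/kg. Whether untreated mice were injected with PBS or another antibody, and for how long the diets were fed, is not given in the sources used here. Libraries may or may not stem from separate mice, which the labels leave unsaid. The p-values therefore refer to the spread among libraries, and part of it may be technical.

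Complement is a chain of plasma proteins that marks microbes, debris and dying cells for uptake. In the classical pathway C1q, built of the A, B and C chains encoded by C1qa, C1qb and C1qc, binds its target and switches on the proteases C1r and C1s, which cleave C4 and C2. Their fragments form the enzyme that cleaves C3, on which all routes meet. Factor B, the product of Cfb, is the protease of the alternative pathway's C3-cleaving enzyme and is itself activated by adipsin, the protease that fat cells secrete from Cfd. Serping1 encodes the C1 inhibitor, which inactivates C1r and C1s. The liver makes most plasma complement, whereas C1q is known chiefly as a macrophage product and fibroblasts are known to make C1r, C1s, C3, C4 and the C1 inhibitor.

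The 3 C1q genes lie side by side on the minus strand of chromosome 4 (GRCm38, GENCODE vM21), C1qb at 136880129 to 136886187, C1qc at 136889804 to 136893065 and C1qa at 136895917 to 136898803, with 3616 and 2851 bases between neighbours. C1ra (124512405 to 124523443, plus strand) and C1s1 (124530345 to 124542359, minus strand) lie 6901 bases apart on chromosome 6. Serping1 lies at 84765387 to 84775444 on the minus strand of chromosome 2. Cfb and C2, the paired proteases of both C3-cleaving enzymes, are separated by 85 bases on chromosome 17. Its minus strand holds Cfb at 34856374 to 34862518, C4b at 34728380 to 34743882 and C3 at 57203970 to 57228136. Upstream sequences from RefSeq (GRCm38.p6) were matched for 5 of the 9 genes (C1qb, C1qc, C1ra, C1s1 and C3). Of these, the stretches before C1qb, C1qc and C3 are shown because C1qb and C1qc ran close to C1qa over the libraries and C3 had the diet change nearest to 0 in untreated mice. The 250 bases before each RefSeq start were searched on both strands for the core of the PU.1 site GAGGAA, a STAT site TTCNNNGAA, an interferon response site TTTCNNTTT and a C/EBP site TTGCNNAA, and matches are in capitals. The stretches are chr4:136886201-136886450 for C1qb, chr4:136893066-136893164 for C1qc (99 bases, since the rest of its window lies inside the annotated gene) and chr17:57228137-57228386 for C3, all read 5′ to 3′ on the minus strand.
C1qb: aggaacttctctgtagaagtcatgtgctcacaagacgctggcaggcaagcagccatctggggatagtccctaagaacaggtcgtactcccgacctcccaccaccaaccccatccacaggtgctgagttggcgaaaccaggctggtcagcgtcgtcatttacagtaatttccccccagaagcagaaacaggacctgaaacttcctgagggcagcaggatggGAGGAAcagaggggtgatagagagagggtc
C1qc: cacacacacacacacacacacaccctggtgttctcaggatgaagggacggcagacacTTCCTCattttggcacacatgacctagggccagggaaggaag
C3: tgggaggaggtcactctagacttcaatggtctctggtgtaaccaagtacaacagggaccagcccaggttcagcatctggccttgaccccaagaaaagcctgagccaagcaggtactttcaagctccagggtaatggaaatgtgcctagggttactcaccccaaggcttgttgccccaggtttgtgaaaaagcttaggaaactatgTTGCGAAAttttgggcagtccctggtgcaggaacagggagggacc
The PU.1 core stood 30 to 25 bases before the C1qb start and, on the opposite strand, 193 to 188 bases before the C1qc start. It occurs in 23.3% of 32851 windows of the same length. The C/EBP letters stood 45 to 38 bases before the C3 start and also in the C1s1 window, against 9.56% of all windows. The STAT letters, found in 7.02% of all windows, and the interferon response letters, found in 9.37%, were in none of the windows of the 5 genes. These matches describe letters in a window and were not tested as binding sites.

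Some of the 9 genes share sequence with others, which bounds how firmly their counts belong to them. Of the 50-base words of each transcript, none was shared with another gene for C1qa, C1qb, C1qc, C3 and Serping1. For C1ra 50.8% were shared, mostly with C1rb, for C1s1 24.3% with C1s2 and for C4b 35.2% with C4a. For Cfb 81.4% were shared with the gene Gm20547 on the same strand, which covers 79.5% of its exon bases and has no row in the table. The antisense gene Gm16567 overlaps 18.4% of the C1s1 exon bases. How reads with several origins were counted is not given in the sources used here.

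**Figure D1:**
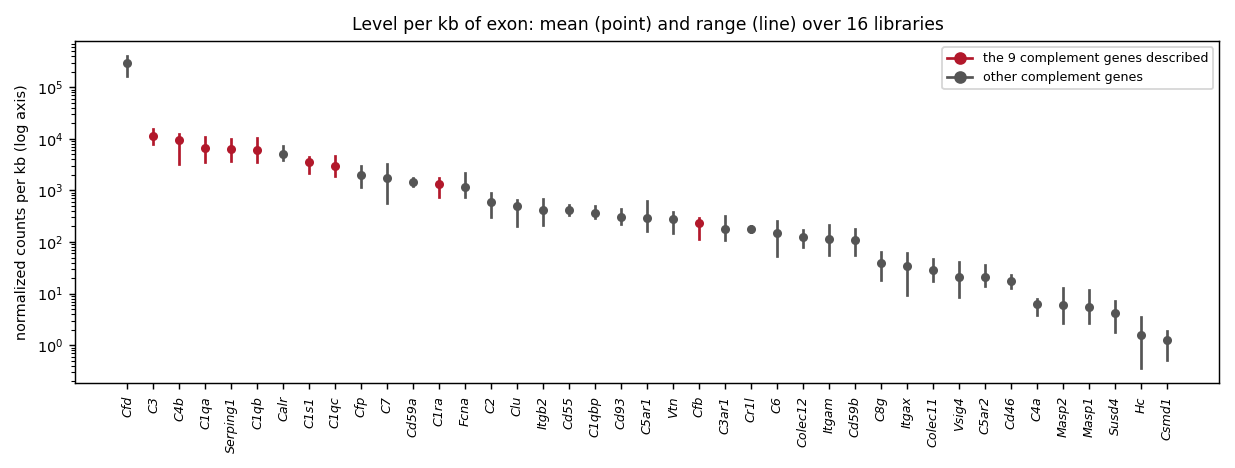
Mean level per kilobase of exon (points) and range over 16 libraries (lines) on a log axis for the complement genes named on the axis. Red marks the 9 genes described. C3 and C4b came next after Cfd, and Cfb was at 236.8 per kilobase.

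Levels per kilobase of exon placed most of the 9 genes at the top of the 42 complement genes in the table, as the plot of levels per kilobase shows. Cfd was first with a mean of 295400 normalized counts per kilobase. C3 averaged 11100, C4b 9418, C1qa 6507, Serping1 6422 and C1qb 6136, ranks 2 to 6. Calr, outside the 9, was at rank 7 with 5125. C1s1 had 3553 (rank 8), C1qc 2960 (rank 9), C1ra 1319 (rank 13) and Cfb 236.8 (rank 24). The Cfd range of 166700 to 396400 lay above all others. From C3 to C1qc the ranges over libraries of neighbours in this order overlapped. C1ra lay between 761.2 and 1705 per kilobase, below the lowest C1qc value of 1860, and Cfb lay between 115.2 and 288, below the lowest C1ra value. If reads shared with other genes were not counted, the levels of Cfb, C1ra, C4b and C1s1 are understated, so that their places are uncertain. Lengths were those of all annotated exons. For C1qc these hold 1931 bases, against 1203 in its longest coding transcript, so its level may be understated too.

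Library totals lay between 24020600 and 28150000 normalized counts, and the depth in reads is unknown. All 10 mature adipocyte markers were in the table, with sums from 752000 to 1032000. Summed skeletal muscle markers differed widely, between 163.4 and 8399 in high-fat antibody libraries, 5773 and 514200 in high-fat untreated libraries, 29650 and 172100 in control-diet antibody libraries and 257.6 and 31180 in control-diet untreated libraries. High-fat untreated replicate 2 held the highest of these sums. Control-diet untreated replicate 3 stood apart by its total, the highest of the 16, of which Scd1, a fatty acid desaturase, made up 9.1%, against 3.07% to 7.32% in the other 15 libraries. Values without both of these libraries are given where they change a call. Of 6 hepatocyte markers 3 were in the table, with sums from 923.8 to 3314, nearly all of it Alb. The 9 lymphocyte markers summed to 135.7 to 402, and none of 5 epithelial markers was in the table.

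**Figure D2:**
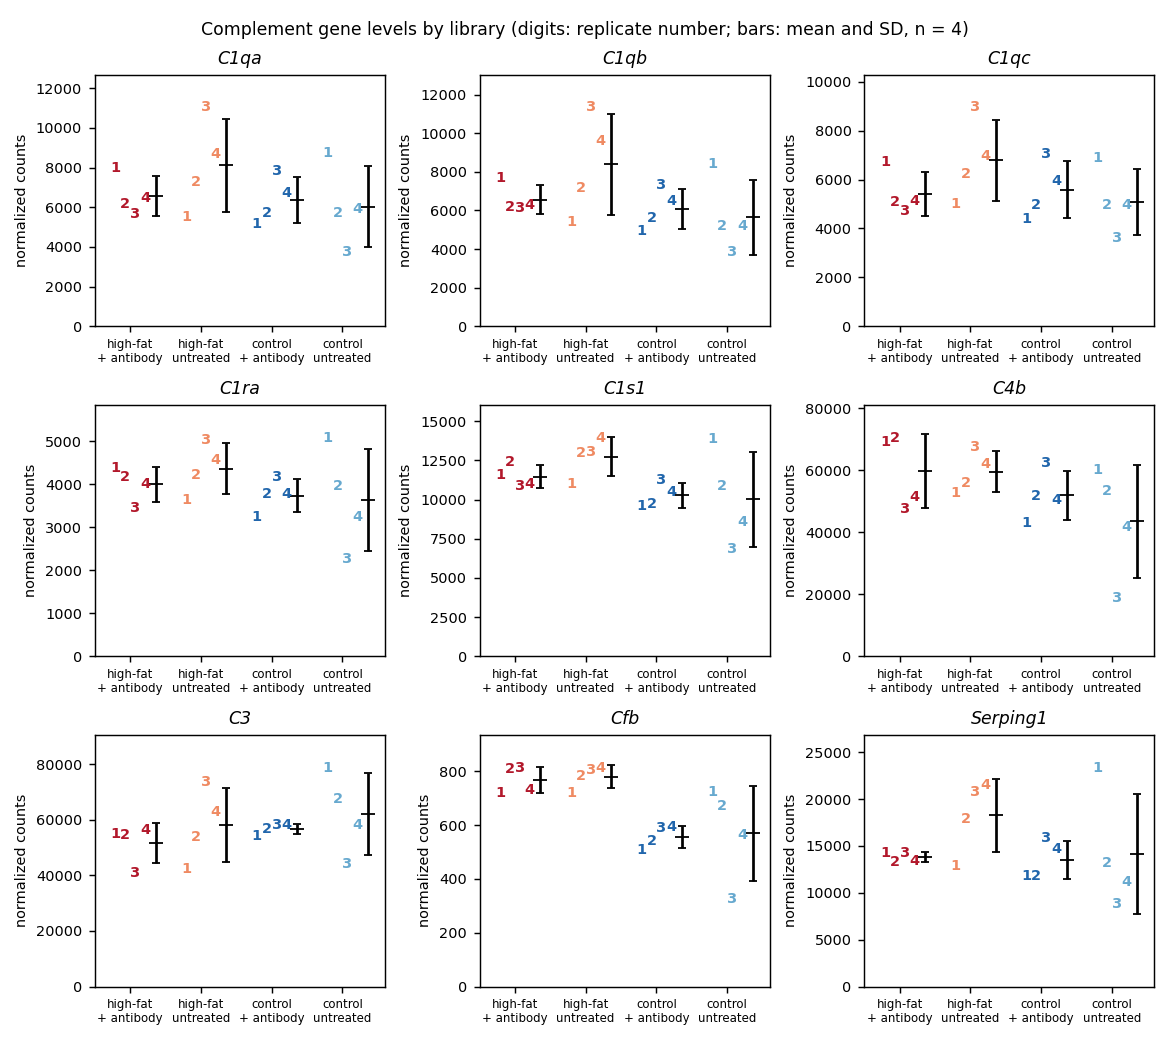
Normalized counts of the 9 genes in each library, by group; digits give the replicate number and bars the mean and SD of 4 libraries. Control-diet untreated replicate 1 was the highest and replicate 3 the lowest of its group for every gene.

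In 3 of the 4 groups 1 library was the highest or the lowest for every gene. Control-diet untreated replicate 1 was the highest of its group for 9 of 9 genes and replicate 3 the lowest for 9 of 9. High-fat untreated replicate 1 and control-diet antibody replicate 1 were the lowest of their groups for 9 of 9 genes. In the high-fat antibody group no library was: replicate 1 was the highest for 5 genes and the lowest for 1, and replicate 3 was the lowest for 7 and the highest for 1, Cfb. The 9 genes made up 0.327% of all normalized counts in control-diet untreated replicate 3 and 0.845% in replicate 1, where Scd1 made up 9.1% and 4.73%. The spread was uneven over groups. The coefficient of variation of Serping1 was 3.94% in high-fat antibody libraries, the lowest of the 9 genes there. It was 21.3% in high-fat untreated libraries, 15.1% in control-diet antibody libraries and 45.4% in control-diet untreated libraries. On the high-fat diet it ran the other way for C4b (19.9% with antibody, 11.2% untreated) and Cfb (6.28% with antibody, 5.49% untreated).

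In untreated mice 8 of the 9 genes had a higher fitted level on the high-fat than on the control diet and C3 a lower one, but none passed the threshold of an adjusted p under 0.05. The median log2 change of the 9 was 0.44, against 0.02 over all genes tested, of which 53.1% were higher. Over all genes 8.15% passed the threshold. At an unadjusted p under 0.05 there were 3 of the 9 (C1qb, C1s1 and Cfb), against 30.3% of all genes. The test was limma with Benjamini-Hochberg adjustment over all 14189 genes.

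C1qa, the A chain of C1q, measured 5507, 7254, 11040 and 8671 normalized counts in high-fat untreated libraries, against 8741, 5694, 3745 and 5931 in control-diet untreated libraries. C1qb, the B chain, measured 5412, 7171, 11350 and 9621 in high-fat untreated libraries, against 8403, 5198, 3831 and 5177 in control-diet untreated libraries. C1qc, the C chain, measured 4992, 6221, 8955 and 6973 in high-fat untreated libraries, against 6873, 4940, 3591 and 4966 in control-diet untreated libraries. High-fat replicate 3 was the highest of the 8 libraries for each chain and control-diet replicate 3 the lowest, and the groups overlapped. The log2 changes were 0.45 (SE 0.24) for C1qa, 0.57 (SE 0.23) for C1qb and 0.42 (SE 0.21) for C1qc, with limma adjusted p-values of 0.214, 0.117 and 0.183.

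With antibody on both diets the fitted differences of the C1q chains lay nearer to 0. C1qb, for example, measured 7710, 6159, 6119 and 6272 in high-fat antibody libraries, against 4940, 5629, 7320 and 6496 in control-diet antibody libraries. The C1qb change between those groups was 0.12 on the log2 scale (SE 0.23, limma adjusted p = 0.831), and those of C1qa and C1qc were 0.05 and -0.04. One high-fat antibody library stood above the rest of its group and the groups overlapped.

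The proportions of the 3 chains varied little. The C1qb to C1qa ratio within a library lay between 0.873 and 1.11 over all 16 libraries and the C1qc to C1qa ratio between 0.786 and 0.959. Under antibody the C1qc to C1qa ratio did not overlap between diets, with 0.793 to 0.84 in high-fat antibody and 0.845 to 0.902 in control-diet antibody libraries. The sum of the 3 chains divided by that of 12 macrophage markers averaged 0.512 ± 0.044 in high-fat antibody, 0.519 ± 0.045 in high-fat untreated, 0.523 ± 0.036 in control-diet antibody and 0.506 ± 0.053 in control-diet untreated libraries (SD, n = 4 each). Between high-fat and control-diet untreated libraries this ratio gave p = 0.686 (two-sided exact permutation test over 70 assignments). The marker sums themselves had medians of 35680 (range 33310 to 39760) in high-fat antibody, 45560 (31630 to 55120) in high-fat untreated, 33640 (29960 to 39880) in control-diet antibody and 29770 (24680 to 48540) in control-diet untreated libraries. All 12 macrophage markers had a higher fitted log2 level in high-fat than in control-diet untreated libraries, with a median change of 0.39. Cd68 alone of them passed the threshold (0.76, SE 0.20, limma adjusted p = 0.04). That count of 1 in 12 is near the 8.15% of all genes past it. For Aif1 the fitted change was 0.02 and the mean normalized counts ran the other way, 196.5 in high-fat untreated and 201.3 in control-diet untreated libraries. In bulk tissue more cells of a type and more RNA per cell cannot be told apart.

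**Figure D3:**
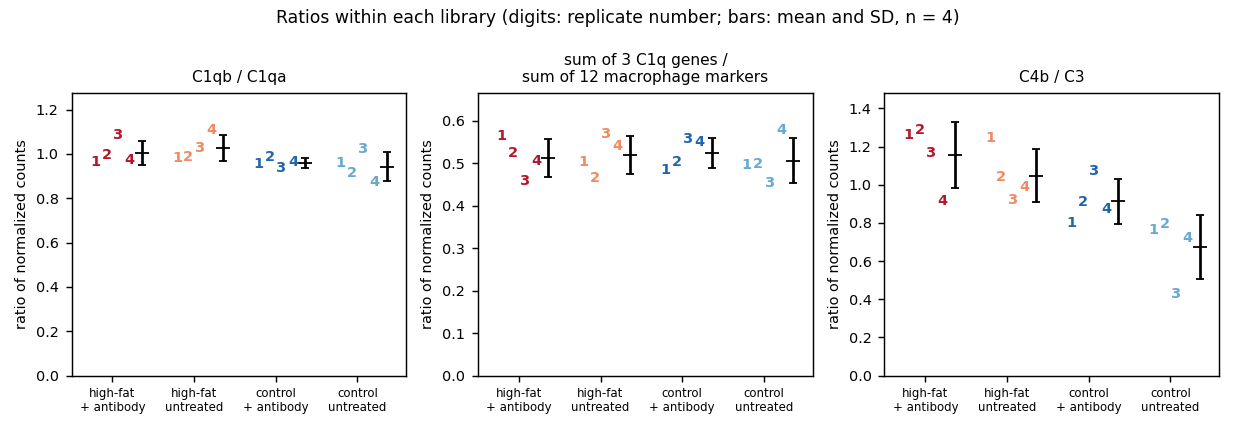
Ratios of normalized counts within each library; digits give the replicate number and bars the mean and SD of 4 libraries. C1qb to C1qa and C1q to macrophage markers lay within 0.873 to 1.11 and 0.453 to 0.579, while C4b to C3 averaged 1.048 in high-fat untreated and 0.675 in control-diet untreated libraries.

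Both C1 proteases also had higher fitted levels on the high-fat diet in untreated mice, short of the threshold. C1s1, which encodes C1s, measured 10970, 12950, 13030 and 13950 normalized counts in high-fat untreated libraries, against 13840, 10880, 6853 and 8539 in control-diet untreated libraries. C1ra, which encodes C1r, measured 3632, 4222, 5027 and 4561 in high-fat untreated libraries, against 5083, 3946, 2269 and 3248 in control-diet untreated libraries. For C1s1 1 control-diet library, replicate 1, reached into the high-fat range, and for C1ra replicates 1 and 2 did. The log2 change was 0.39 for C1s1 (SE 0.16, limma adjusted p = 0.12) and 0.31 for C1ra (SE 0.18, adjusted p = 0.264). Under antibody on both diets C1s1 had 11560, 12420, 10830 and 10990 in high-fat antibody libraries, against 9564, 9745, 11270 and 10480 in control-diet antibody libraries. That difference was 0.16 on the log2 scale (SE 0.16, limma adjusted p = 0.629). C1s1 to C1ra ratios lay between 2.59 and 3.15 in all 16 libraries.

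Markers of adipose progenitors and fibroblasts, cells known to make both proteases, C4 and the C1 inhibitor, ran the same way. All 11 had a higher fitted log2 level in high-fat than in control-diet untreated libraries, at a median log2 change of 0.42. None passed the threshold, against 8.15% of all genes. Their summed levels lay between 366700 and 505000 in high-fat antibody, 377500 and 551100 in high-fat untreated, 295400 and 371600 in control-diet antibody and 191500 and 477800 in control-diet untreated libraries. Most of each sum was Col3a1 and Col1a1, for instance 308800 and 123500 of 505000 in high-fat antibody replicate 1. The part of these markers in the results for the complement genes was not tested.

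Serping1, the inhibitor of these proteases, measured 12900, 17930, 20740 and 21470 normalized counts in high-fat untreated libraries, against 23350, 13140, 8793 and 11160 in control-diet untreated libraries. The highest value of the 8 was thus a control-diet library. The log2 change was 0.44 (SE 0.23, limma adjusted p = 0.213). Under antibody it measured 14290, 13250, 14280 and 13450 in high-fat antibody libraries, against 11780, 11850, 15800 and 14710 in control-diet antibody libraries. The high-fat values lay inside the control-diet range. The log2 change there was 0.04 (SE 0.23, limma adjusted p = 0.945).

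C4b, which encodes C4, measured 52550, 55960, 67580 and 62000 normalized counts in high-fat untreated libraries, against 59950, 53430, 18740 and 41770 in control-diet untreated libraries. The low library was control-diet replicate 3. The log2 change was 0.57 (SE 0.28, limma adjusted p = 0.181), and without that library 0.21. C3, the protein on which the pathways meet, measured 42270, 53740, 73480 and 62660 in high-fat untreated libraries, against 78720, 67390, 43950 and 57990 in control-diet untreated libraries. The C3 groups overlapped almost fully, with a log2 change of -0.09 (SE 0.19, limma adjusted p = 0.77) and a 95% interval from -0.50 to 0.31.

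With antibody on both diets C4b measured 69180, 70500, 47570 and 51300 in high-fat antibody libraries, against 43050, 51690, 62370 and 50510 in control-diet antibody libraries (log2 change 0.19, SE 0.28, limma adjusted p = 0.76). C3 measured 54950, 54700, 40880 and 56200 in high-fat antibody libraries, against 54020, 56820, 58060 and 57970 in control-diet antibody libraries. The C3 change was -0.15 (SE 0.19, limma adjusted p = 0.726), and 0.073 with a muscle score in the model. Both pairs of groups overlapped.

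The proportion of C4b to C3 was then compared within libraries. C4b and C3 had the highest and the lowest fitted diet change of the 9 genes in untreated mice (log2 0.57 and -0.09). Their ratio therefore had the widest diet difference there of any pair among the 9, and its exact test is not independent support. The C4b to C3 ratio averaged 1.156 ± 0.171 in high-fat antibody, 1.048 ± 0.139 in high-fat untreated, 0.913 ± 0.117 in control-diet antibody and 0.675 ± 0.169 in control-diet untreated libraries (SD, n = 4 each). All 4 high-fat untreated libraries (0.92 to 1.243) lay above all 4 control-diet untreated libraries (0.426 to 0.793), with p = 0.0286 in a two-sided exact permutation test, the smallest that 70 assignments allow. All 4 control-diet antibody libraries (0.797 to 1.074) also lay above all 4 control-diet untreated ones, again with p = 0.0286 in the exact test. The C1qc to C1qa ratio between diets under antibody had the same exact p of 0.0286, with means of 0.823 in high-fat antibody and 0.875 in control-diet antibody libraries. Adjusted over the 24 ratio comparisons these 3 exact p-values became 0.229, which misses the threshold. Because the exact test allows no p below 0.0286, so few comparisons at that floor could not have passed after adjustment.

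Cfb, the factor B gene, was the one of the 9 whose diet difference passed the threshold. It measured 721.2, 807.7, 811.1 and 731.4 normalized counts in high-fat antibody libraries, against 506.6, 541.4, 588.6 and 592.2 in control-diet antibody libraries. In untreated mice it measured 718.9, 782.4, 805.2 and 813.5 in high-fat libraries, against 722.2, 670, 325.4 and 563.9 in control-diet libraries. With antibody the diets did not overlap, and without it 1 control-diet library reached into the high-fat range. A share of 6.38% of all genes was likewise higher without overlap between the antibody groups.

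Averaged over mice with and without antibody, Cfb rose by 0.49 on the log2 scale on the high-fat diet (SE 0.13, 95% interval 0.22 to 0.75, 1.40-fold, limma adjusted p = 0.0178). In that comparison 19.4% of all genes passed the threshold and 8.28% passed it and were higher, so a count of 1 in 9 genes is near the background. The Cfb value passed in each of the 16 fits that left out a library, between 0.36 without control-diet untreated replicate 3 and 0.55 without control-diet untreated replicate 1. Without both libraries that stood apart it was 0.36 (limma adjusted p = 0.0131), and with a muscle score in the model 0.53 (adjusted p = 0.0229). The other 8 genes were not past the threshold in this average. Their log2 changes lay between -0.12 for C3 and 0.38 for C4b.

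Taken by antibody status, the Cfb change was 0.51 in untreated mice (SE 0.18, limma adjusted p = 0.0759) and 0.46 in antibody mice (SE 0.18, adjusted p = 0.195). With antibody none of the 9 genes passed, against 0.00705% of all genes, and Cfb alone had an unadjusted p under 0.05, against 18.1% of all genes. The Cfb difference under antibody passed when only those groups were fitted (SE 0.08, limma adjusted p = 0.0108), where 4.52% of all genes passed. It also passed without both libraries that stood apart (limma adjusted p = 0.0182), where 2.1% of all genes passed. The control-diet antibody libraries held higher muscle marker sums than high-fat antibody libraries, as given above, and with a muscle score in the model the change was 0.59 (limma adjusted p = 0.278).

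**Figure D4:**
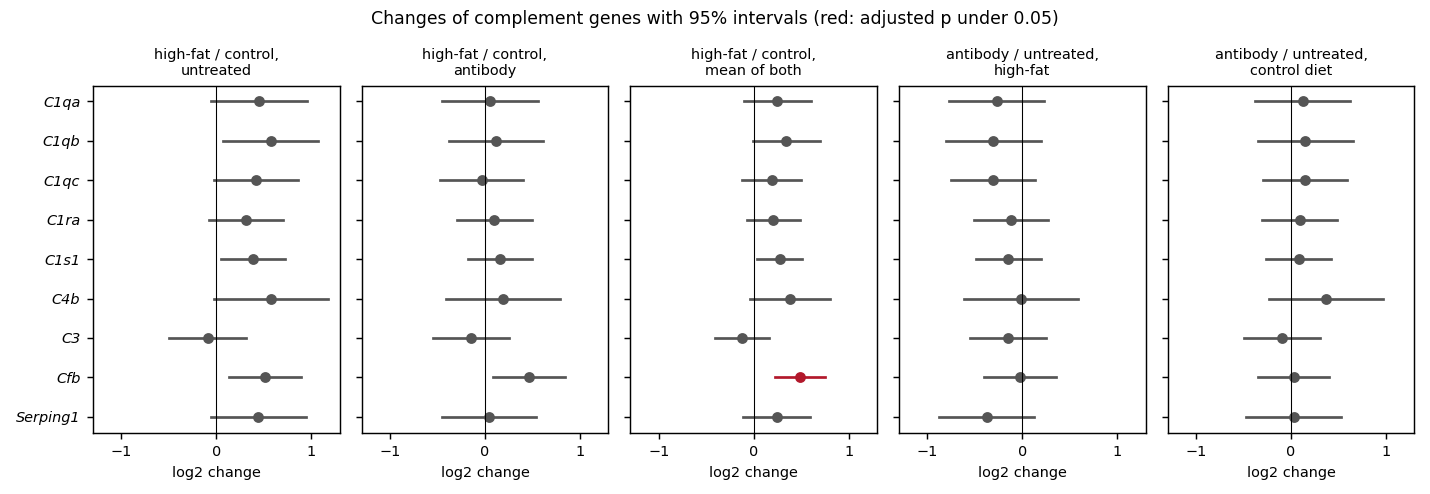
Log2 changes (points) with 95% intervals (lines) of the 9 genes in 5 comparisons from the fit to all 16 libraries. Cfb in the average diet comparison, 0.49, is the one value past the threshold and is drawn in red.

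The diet calls of the 9 genes in untreated mice came mostly from leaving out 1 control-diet library, replicate 1. It was the highest of its group for 9 of 9 genes, so leaving it out had to raise every difference. Without it, 8 of the 9 genes passed the threshold, C3 being the exception, the most calls of the 16 such fits. In that fit 29% of all genes passed and 13.9% passed and were higher. Serping1 then changed by 0.72 (limma adjusted p = 0.00852), C1s1 by 0.56 (adjusted p = 0.00706), C1qb by 0.78 (adjusted p = 0.0148) and Cfb by 0.65 (adjusted p = 0.0135). The remaining 4 lay just inside the threshold, with limma adjusted p from 0.0327 for C1ra to 0.0498 for C4b. In the average over antibody status 5 genes passed without that library (C1qb, C1ra, C1s1, Cfb and Serping1), where 33.3% of all genes passed. Without high-fat untreated replicate 1, C1qb passed in untreated mice (0.76, limma adjusted p = 0.0385), where 13.8% of all genes passed.

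**Figure D5:**
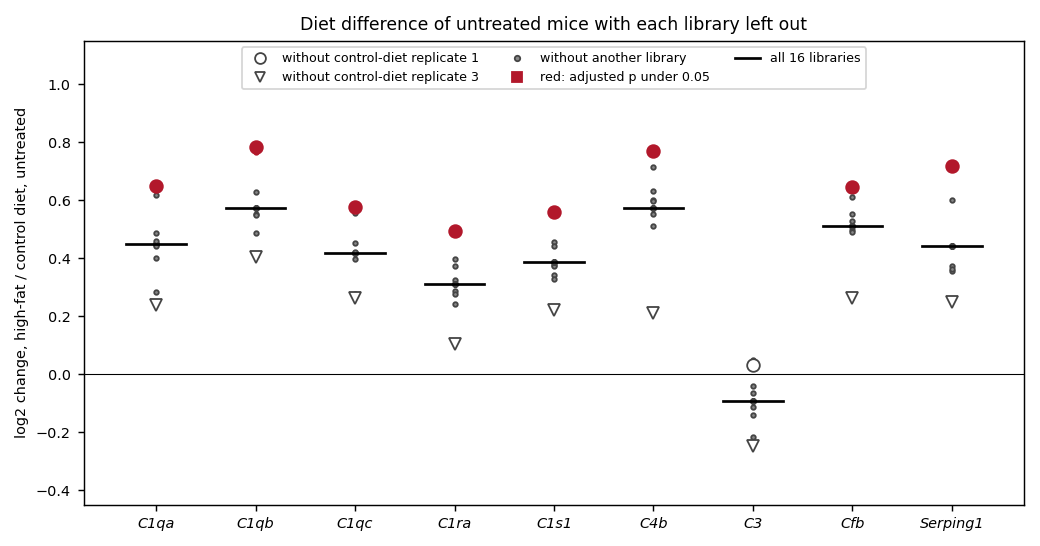
Log2 change between high-fat and control-diet untreated libraries for each gene with all libraries (bars) and with 1 library left out (points), red where the adjusted p was under 0.05. Leaving out control-diet replicate 1 raised 8 genes past the threshold, and leaving out replicate 3 gave the lowest value for each gene. These libraries were the highest and the lowest of their group for every gene.

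The antibody moved none of the 9 genes past the threshold on either diet. On the high-fat diet all 9 had a lower fitted log2 level with antibody, at a median change of -0.15, while 49.9% of all genes were lower. For C4b the fitted change was -0.01 and the mean normalized counts ran the other way, 59640 with antibody and 59520 untreated. With a muscle score in the model C1ra, C1s1, C3, C4b and Cfb were higher instead, by at most 0.11. None of the 9 had an unadjusted p under 0.05, against 13.5% of all genes, and 0.0775% of all genes passed the adjusted threshold. Serping1 had the change farthest from 0, -0.38 (SE 0.23, limma adjusted p = 0.526), followed by C1qc at -0.31 and C1qb at -0.30. High-fat antibody libraries had 13250 to 14290 normalized counts of Serping1, inside the range of 12900 to 21470 of high-fat untreated libraries. Macrophage markers ran the same way, 10 of 12 being lower with antibody at a median of -0.17. So did 9 of 11 progenitor and fibroblast markers (median -0.14) and 10 of 10 skeletal muscle markers (median -5.59). Mature adipocyte markers (9 of 10) and endothelial markers (6 of 6) were mostly higher instead. The part of these markers in the result was not tested.

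On the control diet 8 of the 9 genes had a higher fitted log2 level with antibody and C3 a lower one, at a median of 0.09. For Cfb and Serping1 the fitted changes were 0.03 each, while their mean normalized counts ran the other way (557.2 with antibody and 570.4 untreated for Cfb, 13540 and 14110 for Serping1). Without both libraries that stood apart, C1qa, C1qb, C1qc, C1ra, C1s1, Cfb and Serping1 were lower instead, down to -0.22 for Cfb. None had an unadjusted p under 0.05, against 11.6% of all genes, and 0.0987% of all genes passed the adjusted threshold. C4b had the change farthest from 0, with 43050, 51690, 62370 and 50510 normalized counts in control-diet antibody libraries, against 59950, 53430, 18740 and 41770 in control-diet untreated libraries. Its log2 change was 0.37 (SE 0.28, limma adjusted p = 0.668). Averaged over diets none of the 9 passed, against 2.52% of all genes.

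The interaction, which asks whether the antibody difference varied with diet, was negative for all 9 genes, from -0.46 for C1qb to -0.05 for Cfb. It was positive for C1ra, C1s1, C3 and Cfb with a muscle score in the model, and for C3 and Cfb without both libraries that stood apart. None passed the threshold, and 0% of all genes did in limma. At an unadjusted p under 0.05 there were again none of the 9, against 6.18% of all genes. This value uses the same untreated libraries as the diet comparison, in which 8 genes were higher.

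Of 48 other complement genes listed by role, 33 were in the table and 31 were tested. In untreated mice 1 rose and 3 fell on the high-fat diet, and in the average over antibody status 3 rose and 3 fell. These counts of 4 and 6 in 31 stand beside 8.15% and 19.4% of all genes past the threshold, so that the second is at the background. No antibody comparison, interaction or diet comparison under antibody held a call. The other genes listed for the start of the classical and lectin pathways, C2 and C4a among them, held no call among 7 tested. C2, the partner protease of C4, measured 2217, 1690, 2852 and 2142 normalized counts in high-fat untreated libraries, against 2097, 2402, 1157 and 2335 in control-diet untreated libraries (log2 change 0.19, limma adjusted p = 0.604). C4a, the sequence neighbour of C4b, was low throughout, between 23.9 and 48.53.

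Cfd, whose product adipsin activates factor B, had 242400, 206300, 317900 and 252200 normalized counts in high-fat untreated libraries, against 242500, 365500, 216300 and 316900 in control-diet untreated libraries. Its log2 change was -0.15 (SE 0.27, limma adjusted p = 0.738), and averaged over antibody status -0.29 (SE 0.19, adjusted p = 0.286). In the average over antibody status the fitted changes of adipsin and factor B transcripts differed in sign, but only that of factor B passed the threshold. In untreated mice neither passed, and the difference between these genes was not tested.

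The 3 genes that rose encode receptor chains carried by macrophages and other myeloid cells. Itgb2, the chain shared by the integrin receptors for C3 fragments, measured 1104, 1505, 2074 and 1876 normalized counts in high-fat untreated libraries, against 1391, 937, 655.4 and 945.8 in control-diet untreated libraries. It rose by 0.75 (SE 0.21, limma adjusted p = 0.0438). In the average over antibody status Itgb2 rose by 0.50 (limma adjusted p = 0.0312), C3ar1, the receptor for C3a, by 0.51 (adjusted p = 0.0438) and Itgax, a partner chain of Itgb2, by 0.67 (adjusted p = 0.047). These 3 averages passed in 8, 3 and 4 of the 16 fits that left out a library. With a muscle score in the model, and without both libraries that stood apart, all 3 missed the threshold, in the second case with limma adjusted p from 0.0688 for Itgb2 to 0.0929 for C3ar1. C5ar1, the receptor for C5a, had a log2 change of 0.76 in untreated mice (SE 0.27, limma adjusted p = 0.0825).

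Of the 3 genes that fell, Cd59b, which encodes a membrane inhibitor of the final lytic complex, had 109.8, 102.4, 107.8 and 72.35 normalized counts in high-fat untreated libraries, against 121.5, 150.6, 233 and 191.9 in control-diet untreated libraries. Cd59b fell by 0.80 (SE 0.20, limma adjusted p = 0.0362), in a comparison where 8.15% of all genes passed the threshold. C8g, the gamma chain of C8, had 46.53, 35.08, 30.34 and 29.98 in high-fat untreated libraries, against 35.89, 83.16, 79.12 and 96.99 in control-diet untreated libraries. The C8g groups overlapped, and its lowest values lay near the filter of 24.49. It fell by 0.97 (SE 0.28, limma adjusted p = 0.0488). C1qbp, which encodes a mitochondrial protein that can bind C1q, fell by 0.42 (SE 0.11, limma adjusted p = 0.0362). In the average over antibody status C8g, Cd59b and C1qbp fell by 0.84, 0.62 and 0.31 and passed in all 16 fits that left out a library. In untreated mice alone the calls of Itgb2, Cd59b, C8g and C1qbp passed in 3, 10, 3 and 10 of those fits. With a muscle score in the model, and without both libraries that stood apart, these 4 calls were lost, in the second case with limma adjusted p from 0.19 for Cd59b to 0.222 for C8g. The other regulators named in the list gave no call. The membrane inhibitor Cd55 had a log2 change of 0.10 in untreated mice (limma adjusted p = 0.553) and Cd59a one of 0.02 (adjusted p = 0.936).

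Of 13 listed regulators of complement transcription 10 were tested, transcription factors and the signalling inhibitor Socs3. Stat3, the factor downstream of IL-6, was the one that passed the threshold. A count of 1 in 10 is near the 8.15% of all genes past it in untreated mice. It is below the 19.4% in the average over antibody status. It had 4053, 4424, 4481 and 4600 normalized counts in high-fat untreated libraries, against 4038, 3526, 3052 and 3452 in control-diet untreated libraries. The lowest high-fat value, 4053, was close to the highest control-diet value, 4038. The log2 change was 0.33 (SE 0.09, limma adjusted p = 0.0398). In the average over antibody status Stat3 rose by 0.27 (SE 0.06, limma adjusted p = 0.0107) and passed in all 16 fits that left out a library. The call in untreated mice alone passed in 7 of the 16 and was lost with a muscle score in the model (limma adjusted p = 0.095) and without both libraries that stood apart (adjusted p = 0.209).

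The genes whose log2 levels ran closest to each of the 9 over the 16 libraries, among the other genes tested, were picked by Pearson correlation and are given as a description. Nearest to C1qb were Fcer1g (r = 0.985), a signalling chain of Fc receptors, and Tyrobp (r = 0.974), an adaptor of myeloid receptors. Nearest to C1qa were Cfp, the gene of properdin, and the folate receptor gene Folr2, both at 0.974, and nearest to C1qc was Igfbp6 at 0.983. Fcgr2b and Colec12 were nearest to Serping1, both at 0.97, Casp1 to C1ra at 0.962 and Evc2 to C1s1 at 0.958. Cfb ran closest to Fam114a1 at 0.944 and Htra1 at 0.938, and C4b to Olfml2b at 0.943 and Clu at 0.933. C3 had the loosest neighbour, Aldh7a1 at 0.893. These libraries share diet, antibody and overall composition, so that many genes run together over them.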

How the data were processed

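Per the labels, TRIzol and a kit for lipid-rich tissue served to extract RNA, and stranded libraries were made from its poly-A fraction. Per the submitters' processing notes, the builds were mm10 and GRCm38 and the tools limma 3.42.2, Subread 1.6.2, featureCounts, STAR 2.7.0e and fastp 0.20.1. Values in the deposited table are a linear signal, normalized counts by the table's name. How they were normalized is not given in the sources used here. Since they are not whole numbers, depth in reads is unknown and a count model was not used.

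Values were analysed as log2(value + 1), which understates the change of low genes. Genes above 24.49 (1 CPM of the median total) in at least 4 libraries were tested. In R 4.3.3, limma 3.58.1 fitted one mean per group over all 16 libraries, with 7 contrasts, two-sided tests and Benjamini-Hochberg adjustment within each contrast at 0.05. The fit was checked on simulated data. Ratios within libraries were compared by exact permutation. Named are the 9 genes, other complement genes and regulators past the threshold, and C2, C4a, Cfd, C3ar1, C5ar1, Cd55 and Cd59a in any case; another gene of this rule is not reported here. The genes, lists and alternatives were chosen with earlier results of these data known. Alternatives were a pseudocount of 10, no filter, quantile normalization, a replicate block, no variance trend, a muscle score as covariate, the groups compared alone, and leaving out libraries.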

Additional observations from a re-analysis of the deposited data

Results flagged for a closer look

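Of 36 sets of 4 libraries (9 genes in 4 groups), 2 held a library far from the other 3, and chance gives about 1 in 20. C1qb was 7710 normalized counts in high-fat antibody replicate 1, while the other 3 libraries of that group lay between 6119 and 6272. C3 was 40880 normalized counts in high-fat antibody replicate 3, while the other 3 lay between 54700 and 56200. The cause was not tested.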

How the results depend on the processing

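With a pseudocount of 10 every result kept its direction and its side of the threshold, and the Cfb diet average passed under each alternative run. Counts of all genes were less stable. The replicate numbers were not taken to pair libraries, since same-numbered libraries deviated together in some pairs of groups and apart in others (r = -0.539 to 0.487), although replicate 2 deviated together in all 6 pairs of groups (r = 0.126 to 0.487) and was the best match in 5. With a replicate block the counts were 0 for the diet difference in untreated mice, 0 with antibody, 1498 for the diet average, 2 for the antibody on the high-fat diet, 2 on the control diet, 123 for the antibody average and 1 for the interaction; C3ar1, Itgax and Itgb2 lost their calls in the diet average, and C1qbp, C8g, Cd59b, Itgb2 and Stat3 theirs between diets in untreated mice. Without both libraries that stood apart 0, 298 and 1562 genes passed in the 3 diet comparisons (untreated, antibody, average), and with the groups compared alone 0 and 641 in the first 2 of them, 4 for the antibody on the high-fat diet and 0 on the control diet; both settings called 1 of the 9 genes, Cfb, between diets under antibody. The muscle covariate left 106 genes between diets in untreated mice, 0 for the antibody on the high-fat diet and 4 on the control diet, and the same 8 calls were lost as with the block (adjusted p 0.0638 to 0.111, limma). Without a variance trend 726 genes passed between diets in untreated mice and 3 for the antibody on the control diet, and C8g, Itgb2 and Stat3 (untreated) and C3ar1 and Itgax (average) lost their calls. Without a filter 2 genes passed between diets under antibody, and C8g lost its call in untreated mice. The main counts were 1157 (diet, untreated), 1 (diet, antibody), 2757 (diet average), 11 (antibody, high-fat), 14 (antibody, control diet), 358 (antibody average) and 0 (interaction). Over fits that left out a library they ran from 0 to 4119, 0 to 239, 1593 to 4721, 1 to 271, 0 to 86, 144 to 533 and 0 to 1, and the members called from 0 to 8 (diet, untreated) and 1 to 5 (diet average). The count between diets in untreated mice fell to 0 without high-fat untreated replicate 4 or control-diet untreated replicate 4. The causes were not tested.

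Sign changes were limited to log2 changes of the 9 genes that had passed no threshold (75 values of 28 results; smallest adjusted p under any such setting 0.31, limma). With the muscle score as covariate, these values were C3 0.073 (high-fat against control diet with antibody), C1ra 0.031, C1s1 0.054, C3 0.018, C4b 0.11 and Cfb 0.075 (antibody against none on the high-fat diet), C1ra -0.012, C1s1 -0.059, Cfb -0.041 and Serping1 -0.10 (antibody against none on the control diet), C1ra 0.043, C1s1 0.11, C3 0.23 and Cfb 0.12 (the interaction) and C1ra 0.0095 (the antibody average). Without both libraries that stood apart, these values were C1qa -0.085, C1qb -0.015, C1qc -0.0087, C1ra -0.11, C1s1 -0.086, Cfb -0.22 and Serping1 -0.17 (antibody against none on the control diet), C3 0.075 and Cfb 0.20 (the interaction) and C4b -0.016 and Cfb -0.12 (the antibody average). With quantile normalization, these values were Cfb -0.0071 (the antibody average). For high-fat against control diet with antibody, the ranges over fits that left out a library were C1qa -0.046 to 0.16, C1qc -0.15 to 0.084 and Serping1 -0.021 to 0.12. For antibody against none on the high-fat diet, the ranges over fits that left out a library were Cfb -0.062 to 0.0064 and C4b -0.10 to 0.089. For the antibody average, the ranges over fits that left out a library were Cfb -0.12 to 0.069, C1ra -0.12 to 0.076, C1qa -0.18 to 0.025, C1qb -0.17 to 0.029, C1s1 -0.12 to 0.051 and C4b -0.0019 to 0.28. For the interaction, the ranges over fits that left out a library were C3 -0.20 to 0.10 and Cfb -0.18 to 0.20. For high-fat against control diet, untreated, the ranges over fits that left out a library were C3 -0.25 to 0.05. For antibody against none on the control diet, the ranges over fits that left out a library were Cfb -0.22 to 0.16, Serping1 -0.17 to 0.30, C3 -0.25 to 0.029, C1qa -0.085 to 0.32, C1qb -0.015 to 0.36, C1qc -0.0087 to 0.30, C1ra -0.11 to 0.27 and C1s1 -0.086 to 0.25.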
